A study of Homo sapiens with 12 samples.

Results

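The genes described here encode the respiratory chain and ATP synthase, the mitochondrial ribosome and the protein import machinery of the mitochondrion, read out by m7G meRIP-seq. Members were all deposited m7G regions (peaks) that overlapped the RefSeq body, GRCh38, of a protein-coding gene whose symbol starts with NDUF, UQCR, ATP5, MRPL, MRPS, TIMM or TOMM, or with COX and a digit. This gave 97 of 9958 regions, in 60 of the 207 genes that meet the rule. Regions that overlap each other were joined into 71 loci. The cells were THP-1, a human monocytic leukemia line, made adherent with the phorbol ester PMA at 100 ng/ml for 48 h, and all 12 libraries shared this treatment and began from RNA enriched on oligo(dT) beads. The 4 groups had 3 libraries each: KD IP and KD IN came from cells with a short hairpin against METTL1, the catalytic subunit of an m7G methyltransferase, and NC IP and NC IN from the control cells. IP is the m7G immunoprecipitate, and IN was taken from its name as the input. Whether the knockdown cells were 1 clone or a pool is not given in the labels. No region overlapped METTL1, so the knockdown itself was not measured here. Nothing in the labels says that replicates came from separate cultures, so p values measure the spread between these libraries.

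Complexes I to IV of the inner membrane carry electrons to oxygen. Complexes I, III and IV also pump protons, and ATP synthase uses the proton gradient to make ATP. Most of their subunits are encoded in the nucleus, made in the cytosol and imported through the TOM pores of the outer membrane and the TIM complexes of the inner membrane. A few core subunits are encoded by mitochondrial DNA and made by the mitoribosome, whose proteins (MRPL and MRPS) are imported too. N7-methylguanosine (m7G) is the cap nucleotide of mRNA and is also placed inside tRNA and mRNA, with METTL1 and its partner WDR4 as the enzyme for tRNA.

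A region was found in 29.0% of these genes, beside 27.4% of all protein-coding genes (5498 of 20052). Complex I subunits had regions in 14 of 38 genes, and the import genes in 8 of 16 TIMM and 4 of 10 TOMM genes. Large and small mitoribosomal subunits had regions in 11 of 49 and 6 of 28 genes, nuclear complex IV structural genes in 5 of 17, and ATP synthase genes in 4 of 20. All 3 mitochondrially encoded COX genes had regions, and none of the 9 UQCR genes of complex III did. Reads in regions summed to 1476384 to 1888972 in the 6 IP libraries and 907024 to 1105477 in the 6 IN libraries, which covers regions alone and is not the sequencing depth. After the filter on low counts 67 member regions (45 loci, 41 genes) could be tested. The other 30 held 3 to 84 reads over the 12 libraries (median 20.5), 6 of them with no read in KD IN and 7 with none in NC IN. The 19 genes with no testable region were COX10, COX19, COX5B, COX7A2L, MRPL12, MRPL20, MRPL4, MRPL47, MRPL55, MRPS10, MRPS2, MRPS25, NDUFA5, NDUFAF7, NDUFS8, TIMM23, TIMM23B, TIMM8B and TOMM70.

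The labels give THP-1 cells for all libraries, and markers of cell type differed between KD and NC. Levels are in CPM, counts scaled to a common, TMM-adjusted total over tested regions. Of 21 monocyte and macrophage markers 11 had a region, with summed levels of 4150 to 4410 CPM in KD IN and 1990 to 2380 in NC IN, and of 9 pan-leukocyte markers 3 had one, with 2340 to 2580 in KD IN and 1200 to 1340 in NC IN. Neurofilament and fetal genes that mark the embryonic kidney line HEK293 had regions for 11 of 12, with 2900 to 3470 CPM in KD IN and 15500 to 15800 in NC IN. In KD IN, LIN28B, MAP9 and PNMA8A of that list were at 0 reads, and no marker of it was at 0 in NC IN. Epithelial markers (3 of 8 with a region) summed to 22.9 to 25 CPM in KD IN, with KRT18 at 0, and 564 to 589 in NC IN. These are sums, and some regions of the HEK293 and epithelial lists were called higher in KD IN, as counted further on. Fibroblast markers (3 of 7) summed to 27.2 to 49.8 CPM in KD IN and 29.1 to 78.6 in NC IN, and none of 6 lymphoid or 6 erythroid markers had a region.

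The KD peak set held 38 member regions and the NC set 59. Of the genes, 23 had a region in both sets, 10 in the KD set alone and 27 in the NC set alone. The same split was not counted over all 9958 regions or over all genes. Nothing particular to members is therefore read from these counts. Of the 97 regions, 47 (48.5%, 95% Wilson interval 38.8 to 58.3) shared at least 1 base with a peak from the other condition, against 39.1% of all peaks. The 47 were 23 KD and 24 NC peaks, and both partners of an overlap can count. The interval treats regions as independent and does not allow for this. The authors' fold enrichment per peak had a median of 4.5 over members (1.19 to 34.4), against 9.06 over all peaks. These folds are not the IP to IN ratios of the library counts. Over the 67 tested members the median log2 of IP over IN, with TMM scaling, was -0.23 in KD and -0.34 in NC. Member regions were 61 to 750 bases long with a median of 181, and all regions had a median of 182.

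Regions lay mostly at the start of the gene. Among the 65 member regions in 1 coding gene of known strand, 55.4% had their middle in the first 10% of the gene body and 12.3% in the last 10%, whereas the shares over all 7351 such regions were 33.8% and 27.9%. Over all 78 member regions with a known gene strand, 29 covered the annotated start, in 22 genes. The deposited strand of the region was that of the gene in 68 cases and the opposite in 10. Regions on opposite strands that overlapped by at least 90% had total reads within 10% of each other in 29 of 43 pairs, and the largest ratio of the totals was 1.53. Counts therefore appear not to use strand, and reads of overlapping or antisense genes cannot be told apart. Of the member regions, 20 also overlapped another coding gene.

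**Figure D1:**
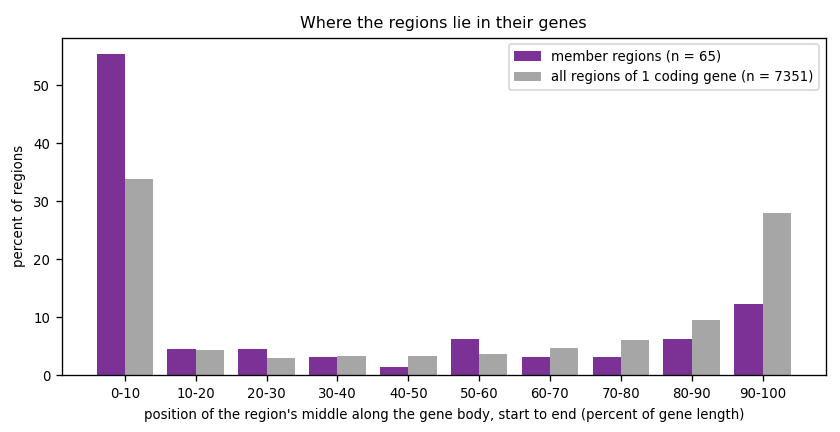
The position of the middle of each region along its gene body (x axis, 10 equal parts from start to end, in percent of gene length) is plotted against the percent of regions (y axis), for the 65 member regions of 1 coding gene (left bars) and all 7351 such regions (right bars). The first part held 55.4% of the member regions and 33.8% of all regions, and the last part 12.3% and 27.9%.

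Because the regions cluster at gene starts, the sequence around the start is shown for 6 named genes whose region covers it, those with the most reads among genes with an entry in the promoter table. The windows run from 200 bases before the annotated start to 30 bases from it, 5′ to 3′ on the gene's strand, from RefSeq promoters of GRCh38.p14. They are chr10:100987468-100987697 (minus strand) for MRPL43, chr16:85799495-85799724 (plus) for COX4I1, chr17:75261679-75261908 (plus) for MRPS7, chr9:137551679-137551908 (plus) for MRPL41, chr17:75904855-75905084 (minus) for MRPL38 and chr10:100529842-100530071 (minus) for NDUFB8. Capitals mark matches, on either strand, to the ETS letters CCGGAAG (in MRPL43 and COX4I1) or the YY1 letters AAGATGGC (in MRPS7, MRPL38 and NDUFB8).
MRPL43: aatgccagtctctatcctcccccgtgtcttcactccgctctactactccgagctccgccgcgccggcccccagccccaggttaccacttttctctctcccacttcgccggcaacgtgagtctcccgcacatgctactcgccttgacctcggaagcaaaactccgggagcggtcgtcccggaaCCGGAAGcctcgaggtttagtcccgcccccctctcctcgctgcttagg
COX4I1: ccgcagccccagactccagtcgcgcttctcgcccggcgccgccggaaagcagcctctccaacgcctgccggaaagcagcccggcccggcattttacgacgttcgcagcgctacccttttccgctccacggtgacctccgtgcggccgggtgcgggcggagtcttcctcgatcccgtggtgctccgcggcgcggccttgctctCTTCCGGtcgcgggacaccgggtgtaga
MRPS7: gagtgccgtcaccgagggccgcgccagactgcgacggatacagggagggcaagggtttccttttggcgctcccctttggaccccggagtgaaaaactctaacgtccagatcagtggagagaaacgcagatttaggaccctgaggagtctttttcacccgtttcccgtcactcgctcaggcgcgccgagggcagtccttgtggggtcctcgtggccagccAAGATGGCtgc
MRPL41: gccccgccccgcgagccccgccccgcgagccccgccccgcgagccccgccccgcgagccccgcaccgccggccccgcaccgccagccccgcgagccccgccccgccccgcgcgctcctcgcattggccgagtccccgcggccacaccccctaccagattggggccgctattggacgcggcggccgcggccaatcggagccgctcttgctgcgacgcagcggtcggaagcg
MRPL38: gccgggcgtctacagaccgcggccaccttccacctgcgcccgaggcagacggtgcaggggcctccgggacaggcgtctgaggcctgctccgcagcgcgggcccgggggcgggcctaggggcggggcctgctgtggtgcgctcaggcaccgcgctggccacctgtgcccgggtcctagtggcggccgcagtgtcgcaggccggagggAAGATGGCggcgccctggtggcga
NDUFB8: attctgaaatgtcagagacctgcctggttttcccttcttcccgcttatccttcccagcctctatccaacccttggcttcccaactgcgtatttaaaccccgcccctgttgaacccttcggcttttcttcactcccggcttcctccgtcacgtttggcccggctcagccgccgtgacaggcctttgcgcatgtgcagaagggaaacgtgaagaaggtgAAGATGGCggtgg
The NRF1 motif and the letters TATAAA were searched as well. Each motif was searched on its own, so matches of different motifs may overlap. Of the 22 genes with a region over the start, the ETS letters were found in 8 (36.4%), the YY1 letters in 6 (27.3%), NRF1 in 3 (13.6%) and TATAAA in 0, for which 1 window per gene was read. Over the 214 promoter windows of the genes that meet the rule the shares were 33.2%, 13.1%, 15.4% and 3.27% in the same order, and over the 22198 windows of all protein-coding genes 11.5%, 2.6%, 6.92% and 7.64%. These are matches of letters, with no measurement of the factors.

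Levels spanned a wide range. In CPM divided by the length of the region in kb, the 5 mitochondrial loci had means of 5640 to 19800 in KD IN and 6300 to 26800 in NC IN. Among nuclear loci NDUFB8, a subunit of complex I, was highest in both (2720 in KD IN, 3910 in NC IN). Next to it in KD IN came COX4I1, a nuclear subunit of cytochrome c oxidase (2100, beside 1900 in NC IN), and in NC IN ATP5IF1, an inhibitor of ATP synthase (1740 in KD IN, against 3440). The lowest locus of KD IN was TIMM29, a subunit of the carrier translocase (5.87, beside 23.6 in NC IN), and that of NC IN was MRPL28, a large-subunit mitoribosomal protein (15.6 in KD IN, against 11.3). This ranking depends on region length, and the NDUFB8 and ATP5IF1 regions are only 61 bases long. In mean CPM without that division, NDUFB8 had 166 in KD IN, against 317 for COX4I1. In NC IN it had 239, against 594 for the COX20 region inside the gene.

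**Figure D2:**
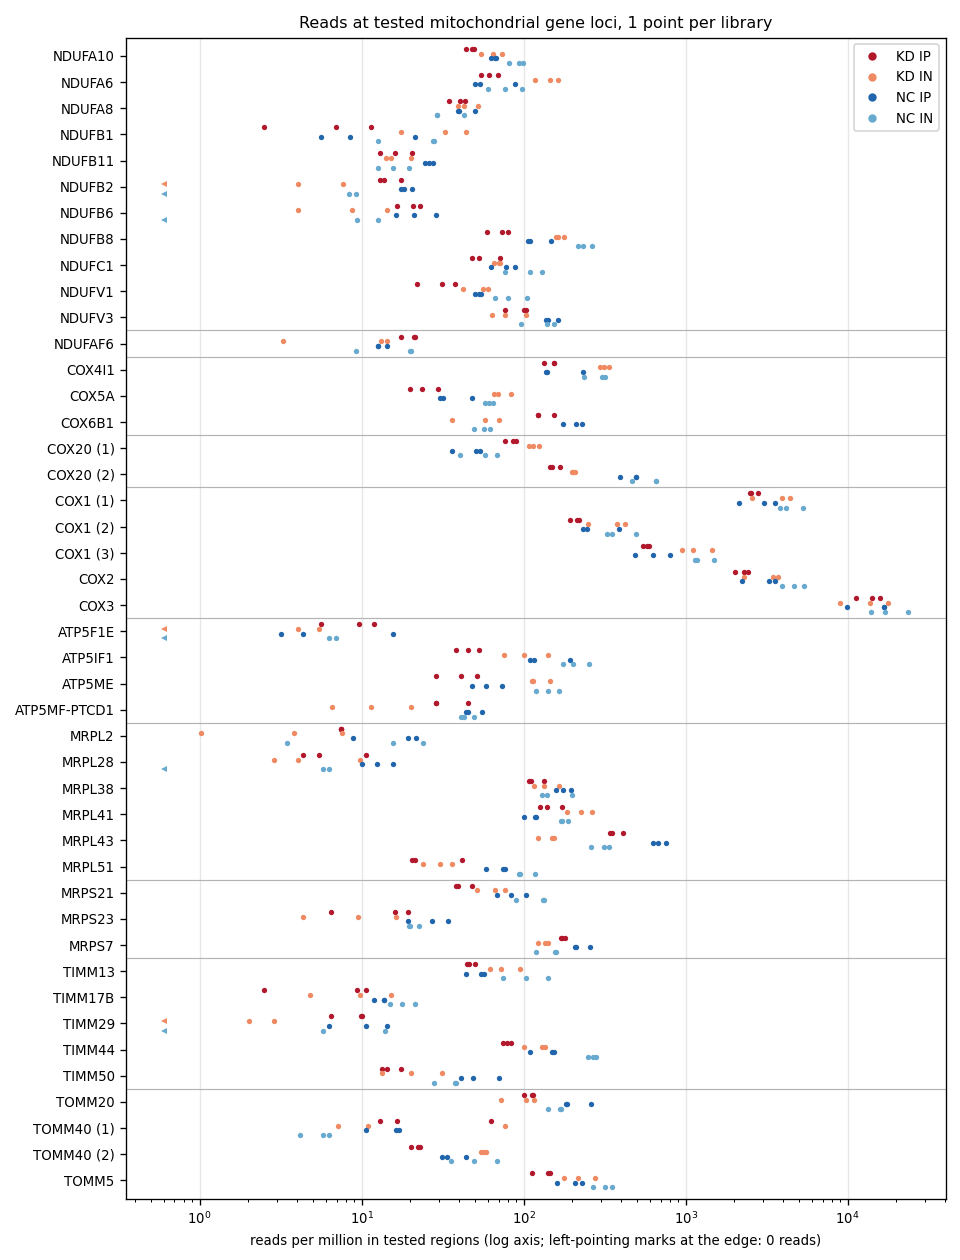
Each point is 1 library at 1 of 44 of the 45 tested loci (rows, grouped by role), with CPM on a log x axis and colours for KD IP, KD IN, NC IP and NC IN. Numbers in brackets tell apart loci of 1 gene. COX1 (1), COX2 and COX3 lie highest in all 4 groups. At COX6B1 and MRPL43 (a region that also lies in TWNK) every IP point lies right of every IN point of its condition.

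IP against IN asks which regions were enriched with the m7G antibody relative to the average tested region. In KD, 34 of 67 member regions passed the edgeR quasi-likelihood test (50.7%, beside 44.9% of the 5113 tested regions): 8 were higher in IP and 26 lower, where 23.5% of all regions were higher and 21.4% lower. The median log2 of KD IP over KD IN was -0.23 over members and 0.23 over all. In NC, 31 passed (46.3%, beside 46.7% of all), 8 higher and 23 lower, where 22.7% of all regions were higher and 24.0% lower, with medians of -0.34 and 0.13. With 1 region at each of the 45 loci, 6 were higher and 20 lower in KD, and 5 and 16 in NC. IP and IN libraries did not overlap at 35 member regions in KD and 38 in NC, of 67, with 56.6% and 57.8% of all regions as background. Scaling by library size alone instead of TMM moved the median of all regions to 0.40 in KD and 0.42 in NC. It gave 9 member regions higher and 18 lower in KD, where 1462 of all regions were higher and 835 lower. In NC it gave 19 higher and 9 lower, so that 67.9% of the called members were higher, beside 67.2% of all called regions (1597 higher, 778 lower). DESeq2 gave 8 higher and 27 lower in KD (1234 and 1168 of all regions), and 11 higher and 18 lower in NC (1319 and 1151 of all). Relative to the median of all regions the member median was 0.46 lower in KD under TMM and under library size (-0.46 each), and in NC -0.46 under TMM and -0.47 under library size. Calls that passed at an adjusted p under 0.05 without each of the 12 libraries in turn numbered 21 in KD (4 higher, 17 lower) and 19 in NC (5 higher, 14 lower). They lay at 17 loci in KD and 13 in NC. The same count was not made over all tested regions, so it shows nothing particular to members. TOMM5, a small subunit of the outer membrane pore, and MRPL41, a large-subunit mitoribosomal protein, were lower in IP in both conditions (TOMM5 -0.75 in KD and -0.65 in NC, MRPL41 -0.62 and -0.66). Under library size alone neither passed in NC (-0.35 and -0.36). Over the 45 loci the log2 values of KD and NC had a Pearson r of 0.77 and a Spearman rho of 0.83. The points share region, length and sequence in both conditions.

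**Figure D3:**
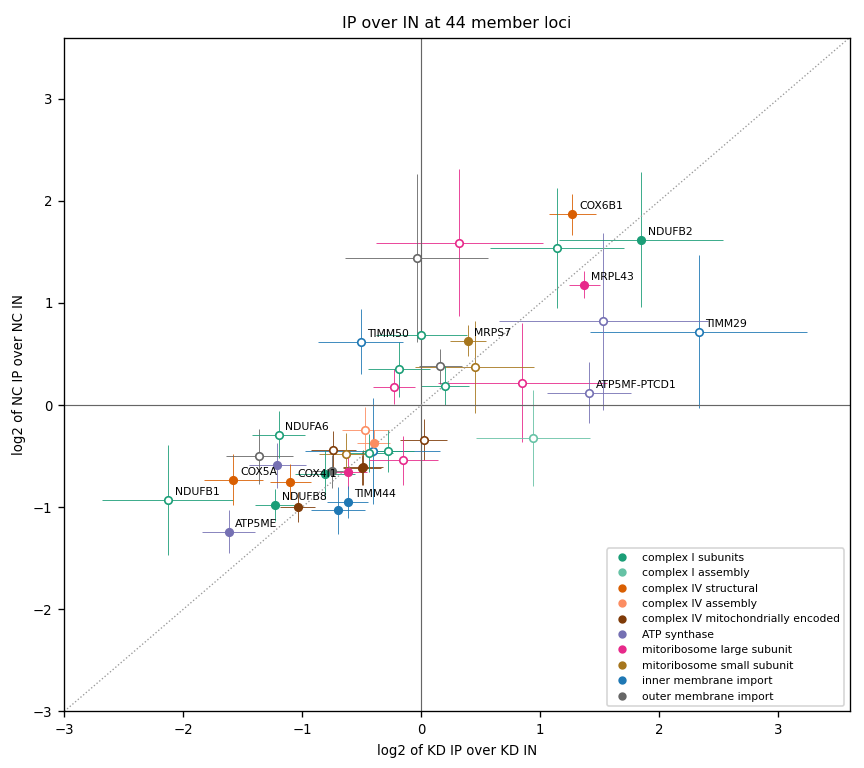
Log2 of KD IP over KD IN (x axis) is set against log2 of NC IP over NC IN (y axis) for 44 of the 45 loci, coloured by role, with standard errors as bars. Filled points passed the test in both conditions, and the dotted line marks equal values. COX6B1 and MRPL43 (a region that also lies in TWNK) lie at the upper right, and ATP5ME, NDUFB8 and COX4I1 at the lower left.

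KD against NC asks how the knockdown libraries differ in input and in immunoprecipitate. In IN, 28 of 67 member regions passed (41.8%, beside 39.8% of all): 3 were higher in KD and 25 lower, where 17.9% of all regions were higher and 21.9% lower. The median log2 of KD IN over NC IN was -0.48 over members, 51 of 67 being below 0, and -0.01 over all. Overlapping KD and NC peaks of a locus enter separately, some with identical counts. More members came from the NC peak set (59) than from the KD set (38), and the comparisons do not allow for this. With 1 region per locus, 32 of 45 were below 0, and 3 were called higher and 16 lower. In IP, 29 passed (43.3%, beside 41.0% of all), 1 higher and 28 lower, where 20.9% of all regions were higher and 20.1% lower, with medians of -0.49 and 0.05. With 1 region per locus, 1 was higher and 18 lower in IP. KD and NC libraries did not overlap at 30 member regions in IN (44.8% of all regions) and 39 in IP (57.9% of all). Under library size alone the counts were 4 higher and 18 lower in IN (1039 and 1010 of all regions), and 1 and 32 in IP (968 and 1079 of all). Calls that held without each library in turn numbered 12 in IN (2 higher, 10 lower) and 19 in IP (1 higher, 18 lower). They lay at 9 loci in IN and 13 in IP, and again no such count was made over all tested regions. Without KD IN replicate 3 the lower calls in IN numbered 11, and without NC IN replicate 2 they numbered 15. The 66 nuclear loci took 0.272 to 0.28% of all reads in regions in KD IP and 0.296 to 0.313% in KD IN, against 0.423 to 0.457% in NC IP and 0.391 to 0.396% in NC IN. Every KD library lay below every NC library. At the 5 mitochondrial loci the shares were 1.76 to 2.27% in KD IP and 1.44 to 2.55% in KD IN, against 1.68 to 2.64% in NC IP and 2.12 to 3.17% in NC IN, and KD and NC overlapped in both IP and IN. In bulk RNA, fewer cells of a type and less RNA per cell cannot be told apart. The summed levels of HEK293 and epithelial markers given above were lower in KD IN than in NC IN, without overlap of the libraries. Those of monocyte and leukocyte markers were higher, also without overlap. By region in IN, 16 of 18 tested HEK293 regions were lower and 2 higher, and of 4 epithelial regions 2 were lower and 1 higher. Of 15 monocyte and macrophage regions 10 were higher and 0 lower, and of 8 pan-leukocyte regions 8 and 0. The part of these markers in the results on KD against NC was not tested.

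**Figure D4:**
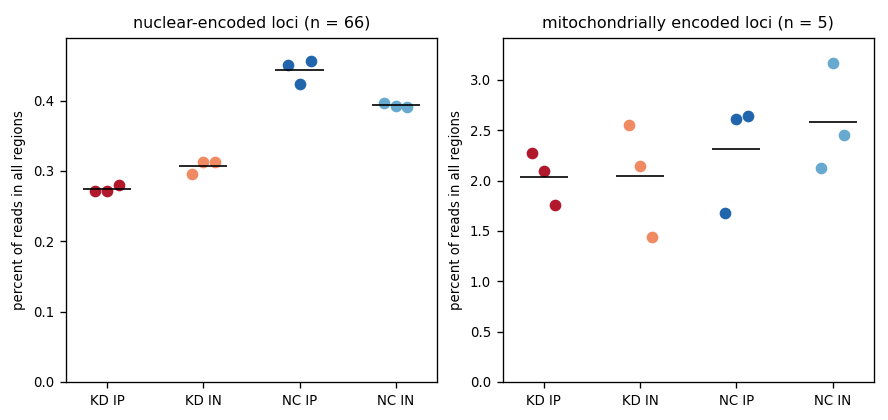
Each point is 1 library, the y axis its reads at member loci as a percent of its reads in all regions, and the line the mean of the 3 libraries, for KD IP, KD IN, NC IP and NC IN. Nuclear-encoded loci (left panel, 66 loci) lie between 0.272 and 0.313% in KD and between 0.391 and 0.457% in NC, and at mitochondrial loci (right panel, 5 loci) the groups overlap.

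Among complex I genes, 12 had a tested region. NDUFA6, an accessory subunit (region chr22:42090614-42090794, over the start), had 69.4, 54.8 and 61.5 CPM in KD IP and 146, 117 and 164 in KD IN, against 53.6, 50.4 and 88.7 in NC IP and 76.5, 60.6 and 97.1 in NC IN. The KD IN libraries lay above all others, and the other 3 groups overlapped. NDUFA6 was higher in KD IN than in NC IN with a log2 of 0.86 ± 0.23 (SE, adjusted p = 0.0037), while KD IP over NC IP was -0.05. IP was below IN in KD, with a log2 of -1.20 ± 0.22 (SE, adjusted p = 7.8e-05), whereas NC IP over NC IN was -0.29 and did not pass. The difference between these is the change in enrichment described further on. NDUFB8, another accessory subunit (chr10:100529821-100529881, over the start), showed 80.0, 59.2 and 73.3 CPM in KD IP and 178, 162 and 158 in KD IN, against 110.0, 106 and 148 in NC IP and 265, 234 and 217 in NC IN. IP lay below IN without overlap in both conditions, and KD below NC in both kinds of library. IP over IN had a log2 of -1.23 ± 0.17 (SE, adjusted p = 2.0e-06) in KD and a log2 of -0.98 ± 0.16 (SE, adjusted p = 2.0e-05) in NC. KD IP over NC IP had a log2 of -0.78 ± 0.17 (SE, adjusted p = 0.00049), and KD IN over NC IN, -0.53, no longer passed when KD IN replicate 3 was left out, or NC IN replicate 1 (-0.54 to -0.39 over the 12 libraries left out).

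NDUFB1, an accessory subunit, had a low region (2.48 to 11.5 CPM in KD IP, 17.4 to 44.0 in KD IN) with a log2 of -2.13 ± 0.55 (SE, adjusted p = 0.0027) in KD. NDUFV3, an accessory subunit with its region at 86.3% of the gene (chr21:42910372-42910762), had 103, 100.0 and 77 CPM in KD IP and 142, 138 and 162 in NC IP, without overlap, with a log2 of -0.65 ± 0.19 (SE, adjusted p = 0.0065). NDUFA10, NDUFC1, NDUFV1 and NDUFV3 were also called lower in KD IN than in NC IN (-0.67 to -0.51), with values of -0.81 to -0.33 as each library was left out. The call at NDUFA10 was lost without any library other than KD IP replicate 3. Calls at NDUFC1, NDUFV1 and NDUFV3 were lost when KD IN replicate 2 or 3 or NC IN replicate 3 was left out, at NDUFC1 and NDUFV3 also without NC IN replicate 2, and at NDUFC1 and NDUFV1 also without KD IN replicate 1 (for NDUFV1 also NC IN replicate 1). The NDUFC1 region also overlaps NAA15.

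Among nuclear complex IV genes COX6B1 was higher in IP than in IN, and COX4I1 and COX5A were lower. COX6B1, a nuclear subunit on the side of the intermembrane space (chr19:35648322-35648737, over the start), had 123, 123 and 153 CPM in KD IP and 57.9, 70.7 and 35.9 in KD IN, against 228, 212 and 175 in NC IP and 56.6, 49.3 and 62.4 in NC IN. Every IP library lay above every IN library, and KD IP lay below NC IP, while KD IN and NC IN overlapped. IP over IN had a log2 of 1.27 ± 0.20 (SE, adjusted p = 1.5e-05) in KD and a log2 of 1.87 ± 0.20 (SE, adjusted p = 5.7e-08) in NC, and KD IP over NC IP had a log2 of -0.62 ± 0.18 (SE, adjusted p = 0.0061). COX4I1 (chr16:85799651-85799801, over the start) had 153, 155 and 134 CPM in KD IP and 338, 296 and 315 in KD IN, against 140.0, 138 and 234 in NC IP and 305, 320.0 and 236 in NC IN. Its IP libraries lay below its IN libraries in each condition, with a log2 of -1.10 ± 0.17 (SE, adjusted p = 9.5e-06) in KD and a log2 of -0.75 ± 0.17 (SE, adjusted p = 0.00082) in NC, and KD and NC overlapped in IN. COX5A, a nuclear subunit on the matrix side (chr15:74937994-74938083, over the start), was lower in KD IP, at 23.5, 19.9 and 29.8 CPM, than in KD IN, at 83.3, 66 and 69.6, with a log2 of -1.58 ± 0.25 (SE, adjusted p = 1.6e-05). In NC its log2 of -0.73 no longer passed without NC IP replicate 1 or 2 or NC IN replicate 1 or 2, and it ranged over -0.95 to -0.60 as each of the 12 was left out.

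COX20, an assembly factor that handles the COX2 protein, overlapped loci that differed between KD and NC in opposite directions. At its start (chr1:244835645-244835705) it had 76.3, 86.1 and 89.4 CPM in KD IP and 125, 108 and 115 in KD IN, against 50.9, 36.1 and 53.5 in NC IP and 57.6, 68.2 and 40.5 in NC IN. KD lay above NC in both kinds of library, with a log2 of 1.07 ± 0.22 (SE, adjusted p = 0.00032) in IN and a log2 of 0.84 ± 0.20 (SE, adjusted p = 0.0016) in IP. Inside the gene, at a region deposited on the opposite strand (chr1:244840757-244841027), the values were 167, 145 and 149 CPM in KD IP and 199, 208 and 203 in KD IN, against 497, 392 and 493 in NC IP and 657, 658 and 466 in NC IN. There KD lay below NC without overlap, with a log2 of -1.54 ± 0.14 (SE, adjusted p = 2.8e-09) in IN and a log2 of -1.58 ± 0.14 (SE, adjusted p = 9.5e-10) in IP. Because counts appear not to use strand, reads of this inner region cannot be assigned to COX20 RNA with certainty. The region at the start is the only member called higher in KD IP than in NC IP.

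Mitochondrially encoded COX genes, the catalytic core of cytochrome c oxidase, had 9 regions at 5 loci, and 2 of these loci scarcely touch a COX gene. The locus assigned to COX3 (MT 8526 to 9207) covers the body of ATP6 (8527 to 9207), an ATP synthase subunit, and 47 bases of ATP8, and meets COX3 in 1 base. The 70-base locus at MT 7445 to 7514, deposited on the minus strand, covers TRNS1, a mitochondrial serine tRNA gene (7446 to 7514), and meets COX1 in 1 base. Counts appear not to use strand, so its reads cannot be assigned to the tRNA or to RNA of the other strand. This 70-base locus had 547, 578 and 592 CPM in KD IP and 1460, 1110 and 953 in KD IN, against 490.0, 632 and 799 in NC IP and 1180, 1500 and 1150 in NC IN. IP lay below IN without overlap in both conditions, with a log2 of -1.04 ± 0.15 (SE, adjusted p = 5.2e-06) in KD and a log2 of -1.0 ± 0.15 (SE, adjusted p = 7.5e-06) in NC, and KD IN over NC IN was -0.12 (adjusted p = 0.56, edgeR). COX2 (MT 7615 to 8121) had 3700, 3460 and 2300 CPM in KD IN and 3950, 5360 and 4670 in NC IN, which did not overlap. KD IN over NC IN had a log2 of -0.56 ± 0.16 (SE, adjusted p = 0.0057), and the call was lost when the lowest KD IN library (replicate 3) or the highest NC IN library (replicate 2) was left out (-0.63 to -0.31 over the 12 libraries left out). No mitochondrial region was higher in KD than in NC by the test.

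ATP synthase genes had 4 tested loci. ATP5IF1, the inhibitor that blocks ATP hydrolysis by the synthase (chr1:28236108-28236168, over the start), had 38.4, 53.3 and 45.3 CPM in KD IP and 76.2, 100.0 and 142 in KD IN, against 116, 109 and 193 in NC IP and 175, 254 and 201 in NC IN. All KD libraries lay below the NC libraries of their kind. KD over NC had a log2 of -1.60 ± 0.23 (SE, adjusted p = 4.0e-06) in IP and a log2 of -0.98 ± 0.23 (SE, adjusted p = 0.0013) in IN. ATP5ME, a small subunit of the membrane part (chr4:674178-674358, over the start and deposited on the opposite strand), had 41.1, 28.9 and 51.5 CPM in KD IP and 115, 112 and 145 in KD IN, against 58.9, 47.9 and 73.6 in NC IP and 142, 119 and 165 in NC IN. IP lay below IN in both conditions, and KD IN and NC IN overlapped. Its IP over IN was the lowest of all 45 loci in NC, a log2 of -1.24 ± 0.21 (SE, adjusted p = 3.3e-05), and a log2 of -1.62 ± 0.22 (SE, adjusted p = 1.7e-06) in KD. A region in the readthrough gene ATP5MF-PTCD1 that also lies in CPSF4, a cleavage and polyadenylation factor (chr7:99438921-99439101), had 28.8, 45.3 and 28.6 CPM in KD IP and 20.3, 11.5 and 6.52 in KD IN, against 55.2, 45.4 and 44.1 in NC IP and 40.9, 43 and 49.7 in NC IN. The KD IN libraries were the low group, with a log2 of -1.78 ± 0.36 (SE, adjusted p = 0.00035) against NC IN. KD IP lay above KD IN, with a log2 of 1.41 ± 0.35 (SE, adjusted p = 0.0021). The reads cannot be assigned to either gene.

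Mitoribosomal protein genes were called lower or not at all in KD, with 3 of 6 large-subunit and 1 of 3 small-subunit genes lower in IN, and 3 and 2 in IP, beside 21.9% of all regions lower in IN and 20.1% in IP. A gene can have several regions, and with so few genes nothing is read from these counts. The call at MRPL2 in IN (-1.78) was lost without any library other than replicate 3 of KD IN or of NC IN, and that at MRPS7 in IP (-0.37) without any KD IP library or NC IP replicate 3. MRPL51 (chr12:6493146-6493487, over the start) had 21.3, 20.4 and 41.6 CPM in KD IP and 30.5, 36.3 and 23.9 in KD IN, against 76.9, 74.7 and 58.5 in NC IP and 117, 93.5 and 94.8 in NC IN. KD lay below NC without overlap, with a log2 of -1.35 ± 0.26 (SE, adjusted p = 0.00013) in IP and a log2 of -1.75 ± 0.27 (SE, adjusted p = 1.5e-05) in IN. MRPS21 (chr1:150293860-150294062, over the start) had 38.4, 48.3 and 39.1 CPM in KD IP and 77.2, 51.6 and 66.3 in KD IN, against 83.3, 68.5 and 103 in NC IP and 90.1, 134 and 132 in NC IN. Again no KD library reached an NC library of its kind, with a log2 of -1.01 ± 0.21 (SE, adjusted p = 0.00045) in IP and a log2 of -0.86 ± 0.22 (SE, adjusted p = 0.0031) in IN. The region assigned to MRPL43 (chr10:100987486-100988146, 661 bases) meets that gene in only 12 bases at its start and is deposited on the opposite strand. The same region also lies in TWNK, the helicase of mitochondrial DNA, so its values cannot be read as those of MRPL43 alone. It had 413, 349 and 341 CPM in KD IP and 123, 150.0 and 153 in KD IN, against 677, 756 and 630.0 in NC IP and 261, 312 and 336 in NC IN. Both contrasts separated without overlap: IP over IN had a log2 of 1.37 ± 0.13 (SE, adjusted p = 1.3e-08) in KD and a log2 of 1.18 ± 0.13 (SE, adjusted p = 4.8e-08) in NC. KD was below NC with a log2 of -0.90 ± 0.12 (SE, adjusted p = 1.5e-06) in IP and a log2 of -1.09 ± 0.14 (SE, adjusted p = 7.3e-07) in IN. MRPS7, whose region also overlaps GGA3, was higher in NC IP than in NC IN with a log2 of 0.63 ± 0.15 (SE, adjusted p = 0.0011). The start region of MRPL38 was lower in KD IP than in NC IP with a log2 of -0.59 ± 0.17 (SE, adjusted p = 0.0067), with 108, 111 and 133 CPM in KD IP and 175, 159 and 195 in NC IP, and KD IN and NC IN overlapped.

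Of the import genes, 1 of 5 TIMM and 2 of 3 TOMM genes had a region called lower in KD IN than in NC IN, and 2 and 3 in KD IP against NC IP, beside 21.9% and 20.1% of all regions, and nothing is read from these counts either. Both TOMM calls in IN were lost when KD IN replicate 3 was left out, and that at TOMM5 (-0.48) also when replicate 1 of KD IN, or 2 or 3 of NC IN, was absent. In IP the TOMM5 call (-0.58) was lost without KD IP replicate 2, and the TOMM40 call near its end (-0.73) without any KD IP library or replicate 2 or 3 of NC IP. TIMM44, which ties the import motor to the TIM23 channel (chr19:7934104-7934224, inside the gene), had 83.8, 74.2 and 79.5 CPM in KD IP and 130.0, 135 and 100.0 in KD IN, against 149, 110.0 and 154 in NC IP and 248, 280.0 and 269 in NC IN. KD lay below NC in both kinds of library, with a log2 of -0.80 ± 0.16 (SE, adjusted p = 0.00025) in IP and a log2 of -1.12 ± 0.16 (SE, adjusted p = 4.9e-06) in IN. IP was also below IN, with a log2 of -0.62 ± 0.17 (SE, adjusted p = 0.0038) in KD and a log2 of -0.95 ± 0.16 (SE, adjusted p = 2.0e-05) in NC. TIMM50, the TIM23 subunit that receives preproteins (chr19:39480800-39480861, over the start), had 17.6, 13.4 and 14.3 CPM in KD IP and 20.3, 13.4 and 31.5 in KD IN, against 48.8, 70.3 and 40.9 in NC IP and 37.7, 27.8 and 38.1 in NC IN. In IP the groups did not overlap and KD was lower with a log2 of -1.81 ± 0.32 (SE, adjusted p = 6.6e-05), the lowest value of the 45 loci there, and in IN they overlapped. TOMM20, the receptor for presequences (chr1:235110207-235110596, at 94.6% of the gene), had 114, 101 and 112 CPM in KD IP and 104, 116 and 72.9 in KD IN, against 186, 259 and 183 in NC IP and 171, 168 and 142 in NC IN. KD lay below NC without overlap. KD IP over NC IP had a log2 of -0.94 ± 0.17 (SE, adjusted p = 7.0e-05), and KD IN over NC IN, -0.71, was -0.48 without KD IN replicate 3 (adjusted p = 0.052, edgeR).

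TOMM40, the pore of the outer membrane, gave the highest log2 of the members in input, and it rested on 1 library. At its start (chr19:44891220-44891430) it had 16.5, 62.7 and 13 CPM in KD IP and 7.11, 76.5 and 10.9 in KD IN, against 16.4, 10.6 and 17 in NC IP and 4.19, 6.32 and 5.78 in NC IN. KD replicate 2 stood apart in IP and in IN. KD IN over NC IN had a log2 of 2.55 ± 0.79 (SE, adjusted p = 0.013), and 0.75 without KD IN replicate 2 (adjusted p = 0.49, edgeR). Near the end of the gene (chr19:44903360-44903480) KD IP was below KD IN with a log2 of -1.36 ± 0.28 (SE, adjusted p = 0.00028), without overlap.

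The change in enrichment compares the IP to IN ratio of KD with that of NC and asks whether the knockdown altered m7G signal beyond abundance. In the main edgeR fit no member region passed, nor did any of the 5113 tested (0.0%). At an unadjusted p under 0.05 were 8 of 67 members and 610 of 5113 regions. DESeq2 called 21 regions, 0 of them members. With the replicate number as a block, edgeR called 16 of 5113 regions, 0 of them members. The median log2 change was -0.04 over members and 0.08 over all. The member with the smallest p was NDUFA6, -0.91 ± 0.32 (SE, adjusted p = 0.26, edgeR), followed by the ATP5MF-PTCD1 and CPSF4 region at 1.29 ± 0.47, COX5A at -0.85 ± 0.36, TIMM50 at -1.13 ± 0.48, TOMM40 near its end at -0.86 ± 0.39 and COX6B1 at -0.60 ± 0.29. The authors' deposited table calls 78 of 9958 regions changed (0.783%), and of the members it calls NDUFA6, with a log2 change of -1.03 and an adjusted p of 0.046. Under the edgeR and DESeq2 alternatives the adjusted p of NDUFA6 ranged from 0.082 to 0.46. Leaving out each library in turn moved its log2 over -1.19 to -0.62, weakest without NC IP replicate 3.

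**Figure D5:**
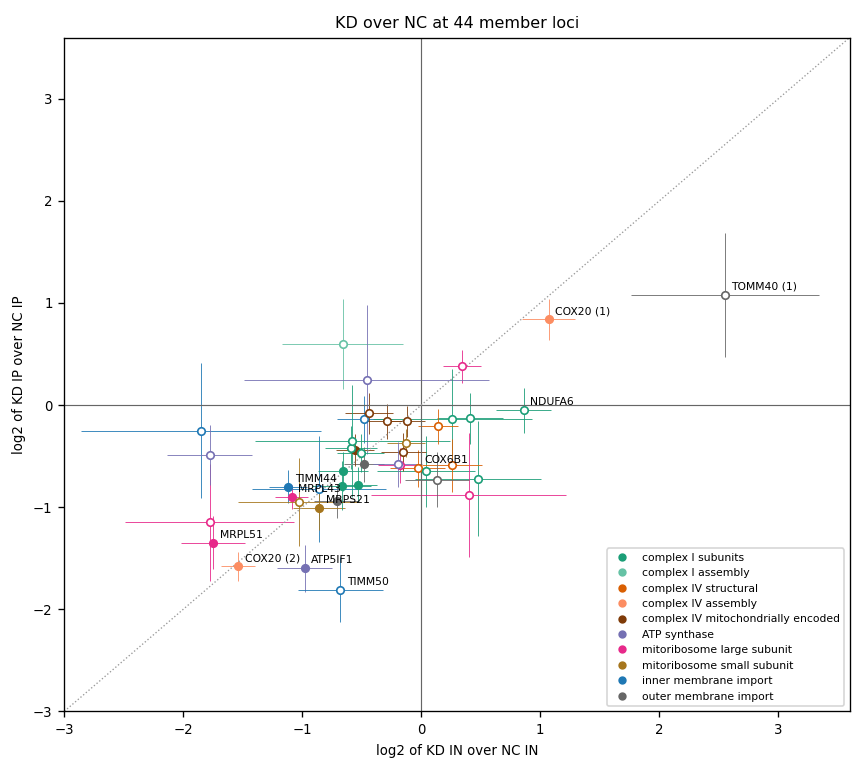
Log2 of KD IN over NC IN (x axis) is set against log2 of KD IP over NC IP (y axis) for 44 of the 45 loci, coloured by role, with standard errors as bars. Filled points passed the test in both, and the dotted line marks equal values. Most loci lie at the lower left, COX20 (1) at the upper right, and TOMM40 (1) far right on 1 library.

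Other mitochondrial genes were read the same way, from lists of which part overlaps the members. Over all tested regions 23.5% were higher and 21.4% lower in KD IP against KD IN, 22.7% and 24.0% in NC IP against NC IN, and 17.9% and 21.9% in KD IN against NC IN. Of 21 tested regions in 12 mitochondrially encoded genes, 11 were higher and 6 lower in KD IP against KD IN, 10 and 6 in NC IP against NC IN, and 0 higher and 8 lower in KD IN against NC IN. ND5, a complex I subunit of that genome, was higher in IP by 1.57 in KD (adjusted p = 2.2e-09, edgeR) and 1.0 in NC (adjusted p = 1.5e-06). Regulators of mitochondrial biogenesis had 15 tested regions, 4 higher and 2 lower in KD IN against NC IN, with PPARGC1B, a coactivator of respiratory genes, at 1.08 (adjusted p = 0.00089, edgeR). Mitochondrial translation genes of other names had 5 tested regions, 0 higher and 3 lower in the same contrast, with DAP3, a small mitoribosomal subunit protein, at -0.66 (adjusted p = 0.02, edgeR). That call was lost when replicate 1 or 3 of KD IN or of NC IN was left out, and the value ranged over -0.86 to -0.37. Import partners and proteases had 4 tested regions, 0 higher and 1 lower there: PMPCB, a subunit of the presequence peptidase, at -0.55 (adjusted p = 0.0016). Complex II and electron carriers had 5 tested regions, 1 higher (CYC1, cytochrome c1 of complex III, at 2.43 with an adjusted p of 0.0007, edgeR) and 1 lower (ETFB, an electron transfer flavoprotein, at -1.40 with 0.00088). The 3 tested regions of the TCA cycle and the 1 of carriers gave no call between KD and NC in IN.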

How the data were processed

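Counts were analysed as the authors deposited them: whole-number reads per region in each of 12 libraries of m7G meRIP-seq. Per the submitters' processing notes, fastp 0.23.4 did the trimming and GRCh38 was the build. The aligner, peak caller and counter are not given in the sources used here. The authors also deposited a fold enrichment (ratio) and p-value per peak, and a log2 change between groups with its adjusted p-value, which are quoted only as theirs. The deposited score was not used.

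Members were found by overlap with RefSeq gene bodies, whatever the strand. All 9958 regions entered edgeR 4.0.16 (R 4.3.3): filterByExpr (minimum count 10, minimum total 15) kept 5113, scaled by TMM, and tested with the two-sided quasi-likelihood F test, fitting a mean for each of 4 groups and leaving 8 residual degrees of freedom, and Benjamini-Hochberg adjustment at 0.05. Adjusted p values in the text are edgeR's unless named otherwise. CPM uses TMM-scaled totals of tested regions. The precision of each value is limited by its reads. The Wilson interval covers counting error only. Standard errors come from the edgeR fit and include its estimate of the spread between libraries. Named genes were, per comparison, members that passed with libraries that did not overlap (up to 12 highest and 12 lowest, 1 region per gene), the 6 smallest p where fewer than 3 passed, and the 3 genes with most reads per role; not every one is printed, and a member is not reported here, in the text or the plots of loci. Alternatives were DESeq2 1.42.0, library size alone, other filters, thresholds and region sets, a replicate block and leaving out each library. The method was checked on simulated counts. Members and lists were chosen with earlier results of these data known. Correlations of deviations between IP and IN libraries of the same number were 0.201, 0.038 and 0.191 in KD. In NC they were 0.118, 0.0999 and -0.007. Between different numbers they were -0.196 to 0.00774 in KD and -0.148 to 0.0561 in NC. All same-number values of KD, and 0.118 and 0.0999 of NC, lay above these ranges. Deviations were taken from the mean of the 3 libraries of a group, so higher values for some pairs force lower values for others. The ranges are thus no independent yardstick and do not decide whether libraries are paired. The labels do not state a pairing. The main fit did not pair libraries, and the replicate block, which uses the numbers, is an alternative.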

Additional observations from a re-analysis of the deposited data

How the results depend on the processing

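Counts of members called (97 regions, 67 tested) kept their direction, with more lower than higher calls, in every alternative run of the 4 comparisons other than the change in enrichment, except NC IP over NC IN under library size alone, where 19 were higher and 9 lower, against 8 and 23 with TMM. With no count filter that comparison gave 13 higher and 15 lower, with its groups alone 13 higher, and in single-gene regions or 1 region per cluster 5 higher each. Without a filter the change in enrichment had 1 lower call among members, COX19 (KD IP had 9 reads, KD IN 17, NC IP 31 and NC IN 0), beside 45 calls among all 9958 regions. In that setting KD IN over NC IN had 5 higher members and KD IP over NC IP 2 higher. For the other 4 comparisons, other filters, thresholds, region sets, the block and fewer libraries were not counted over all regions. Those counts therefore show nothing particular to members. At an adjusted p under 0.01 the counts were 4 higher and 17 lower for KD IP over KD IN, 5 and 15 for NC IP over NC IN, and 14 lower for KD IN over NC IN. At 0.1, 6 were higher for KD IN over NC IN and 3 for KD IP over NC IP. Single-gene regions gave 4 higher for KD IP over KD IN, and 1 region per cluster 16 lower for KD IN over NC IN and 18 lower for KD IP over NC IP. Leaving out each library gave 4 to 8 higher and 20 to 27 lower for KD IP over KD IN (4 without KD IP replicate 1 or KD IN replicate 1 or 3, 5 higher without KD IP replicate 2), and 6 to 11 higher and 15 to 23 lower for NC IP over NC IN (15 without NC IN replicate 2). For KD IN over NC IN it gave 3 to 7 higher and 11 to 25 lower (7 without KD IN replicate 1, 11 without KD IN replicate 3, 15 without NC IN replicate 2), for KD IP over NC IP 1 to 3 higher and 20 to 32 lower (3 without KD IP replicate 1), and 0 for the change in enrichment. The share of member peaks found in both sets was 38.1% when both had to overlap by 50%, and 6.7% in the upper 50% of each set by the authors' fold. Within 100 bases of the start lay 46.2% of regions. By the labels, libraries share only a number. With that number as a block, 7 members were higher and 26 lower for KD IP over KD IN, and 8 and 24 for NC IP over NC IN. Counts were 3 and 22 for KD IN over NC IN and 1 and 28 for KD IP over NC IP. For the change in enrichment the block gave 0 members, and 16 of all 5113 tested regions. Leaving out the 9 mitochondrial regions, chosen after seeing the data, left each count within 1.5 times. Of the 156 values of named regions, 2593 recomputed values kept their call, 156 lost it, 31 gained it and 0 turned sign while called. Causes were not tested. Regions of few reads limit what could be tested.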
